A study of Mus musculus with 14 samples.

Results

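The transcripts of 6 genes that write or read DNA methylation, Dnmt1, Dnmt3a, Dnmt3b, Dnmt3l, Uhrf1 and Uhrf2, were followed in single mouse embryos made by somatic cell nuclear transfer (SCNT). The members were taken by gene name, 6 of the 20242 gene symbols in the tables, and hold 16 of the 25650 entries, an entry being a RefSeq transcript with its own value. The study sequenced RNA of 14 embryos at the 2-cell stage, 1 library per embryo, with cumulus cells as nuclear donors and B6D2F1 given as the strain. All embryos, the controls included, were activated and cultured in mKSOM medium with deionized bovine serum albumin and collected at 28 h, counted from nuclear transfer in the sample labels and from egg activation in the study's methods. The hours in the group names count from the start of activation.

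The 3 control embryos received neither TSA nor VC. TSA (trichostatin A, an inhibitor of histone deacetylases) was given at 50 nM for the first 8 h to 3 embryos, TSA(0-8h). VC (vitamin C, a cofactor of oxygenases that include the Tet enzymes) was given at 10 µg/ml for the first 8 h to 1 embryo, VC(0-8h), or between 8 and 15 h to 2 embryos, VC(8-15h). Both agents were given together for the first 8 h to 2 embryos, TSA(0-8h)+VC(0-8h), and TSA was followed by VC between 8 and 15 h in 3 embryos, TSA(0-8h)+VC(8-15h). Replicates are separate embryos. For TSA(0-8h)+VC(8-15h) the study states that nuclear transfer was carried out in 3 separate experiments, and the labels do not tie embryos to them. Each library pools both blastomeres, so fewer cells with a transcript and less of it per cell cannot be told apart.

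DNA methylation in mammals lies mostly on cytosines of CpG dinucleotides. Dnmt1 copies it to the new strand after replication, and Uhrf1, which binds hemimethylated CpG and ubiquitinates histone H3, brings Dnmt1 to these sites. Dnmt3a and Dnmt3b set methylation at new sites, and Dnmt3l, which has no catalytic activity of its own, assists them, above all in germ cells. Uhrf2 has the same domains as Uhrf1. The early mouse embryo starts with transcripts and proteins stored in the oocyte, most of which are degraded around the 2-cell stage while the embryonic genome is switched on.

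Levels are given in RPKM, read counts scaled to the transcript length in kilobases and to the total of reads counted in the library, summed over the entries of a gene. Between 3021540 and 13589389 reads were counted per embryo, and between 3105 and 6163 genes reached 1 RPKM. The spread between embryos was wide. Actb, a gene that most cells express strongly, ranged from 0 to 417 RPKM and Ppia from 0 to 724 RPKM, and each was listed at 0 in 1 embryo. All 5 oocyte markers (Zp3, Gdf9, Bmp15, Oosp1, Nlrp5) reached 1 RPKM in at least 1 embryo, with a summed level of 96.7 to 990 RPKM. All 5 markers of 2-cell embryos (Zscan4c, Zscan4d, Tcstv1, Tcstv3, Zfp352) did too, with 4.55 to 469 RPKM. Zscan4c and Zscan4d were near 0 in most embryos, with medians of 0.0187 and 0.0204 RPKM. The medians of Tcstv1, Tcstv3 and Zfp352 were 23.1, 13.7 and 71.7 RPKM. The 7 markers of cumulus cells summed to at most 1.82 RPKM, and 2 of them were at 0 in every embryo. The embryos were sequenced in 3 lanes, named 3, 4 and 5 in the library identifiers, and in the groups of 3 embryos each lane held 1 embryo of each group.

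Which entry carried the reads mattered for Uhrf1, and its start sites are shown for that reason. Uhrf1 lies at chr17:56442744-56462909 of mm9 on the plus strand. RefSeq (GRCm38.p6) gives 2 starts, and the 250 bases before each occur once in mm9, at chr17:56442510-56442759 and chr17:56443486-56443735. Capitals mark matches, on either strand, to the GC box GGGCGG, to CCAAT and to TTTCGCGC, a sequence of the kind bound by E2F factors.
Uhrf1, first start: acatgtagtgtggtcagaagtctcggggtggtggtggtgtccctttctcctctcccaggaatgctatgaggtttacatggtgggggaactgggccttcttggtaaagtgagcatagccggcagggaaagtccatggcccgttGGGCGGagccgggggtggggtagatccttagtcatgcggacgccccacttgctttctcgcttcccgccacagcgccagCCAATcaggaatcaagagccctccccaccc
Uhrf1, second start: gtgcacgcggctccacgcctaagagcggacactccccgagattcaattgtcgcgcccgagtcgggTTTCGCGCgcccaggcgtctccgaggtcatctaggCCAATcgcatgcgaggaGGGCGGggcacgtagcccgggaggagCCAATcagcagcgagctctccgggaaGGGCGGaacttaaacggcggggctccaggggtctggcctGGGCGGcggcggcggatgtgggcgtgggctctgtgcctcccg

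The window before the first start holds 10 CpG and the one before the second start 30, more than 94.1% of 32851 promoter windows of the same length in the RefSeq table. TTTCGCGC stands once in the second window and not in the first, and 0.256% of all windows hold it. GGGCGG was found in 32.7% and CCAAT in 33.8% of all windows. CACGTG, TTTGGCGC and TTTCCCGC, found in 6.02%, 0.417% and 0.895% of windows, were searched too and matched neither. The windows of the other members held 2 to 26 CpG for Dnmt1, which has 3 starts and 1 match to TTTCGCGC, 15 to 40 for Dnmt3a, 21 for Dnmt3b, 3 to 5 for Dnmt3l and 23 for Uhrf2. A match is a string of letters and not a measured binding site.

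The lengths behind the 3 Uhrf1 entries were recovered from the steps of their values. The entry NM_010931 has 3570 nt, equal to the exons of the 17-exon transcript from the first start. NM_001111080 has only 81 nt, the length of the first exon that begins right after the second window, at chr17:56443736-56443816. NM_001111079 has 187 nt, the length of a shorter form of exon 7 at chr17:56452488-56452674, whose longer form of 211 nt starts at 56452464. These assignments rest on equal length alone. A short entry turns few reads into a high RPKM, so a sum over entries gives it great weight. Pooled RPKM, that is all reads of a gene over the summed length of its entries, is therefore given beside the sum. The sum was chosen as the measure before this was noticed, and the pooled value after it.

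Uhrf1 was the most abundant of the 6 genes in the control embryos. Its summed level was 326, 193 and 318 RPKM in control embryos 1 to 3. The VC(0-8h) embryo had 2.37 RPKM, and the VC(8-15h) embryos 63.3 and 722 RPKM. TSA(0-8h) embryos had 1.76, 0.215 and 60.4 RPKM, TSA(0-8h)+VC(0-8h) embryos 2.40 and 75.7 RPKM, and TSA(0-8h)+VC(8-15h) embryos 52.0, 6.56 and 36.8 RPKM. All 8 embryos that received TSA thus lay below all 3 controls on this scale, and so did the VC(0-8h) embryo and 1 VC(8-15h) embryo. Of 7518 genes 0.798% had all 8 embryos below the controls on the summed and 0.811% on the pooled scale, counts made after the levels of Uhrf1 were seen, and on the pooled scale Uhrf1 was not among them.

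Part of this height came from the short entries. In control embryo 1, 294 reads on the 187 nt entry gave 290 of the 326 RPKM, whereas 707 reads on the 3570 nt entry gave 36.5 RPKM. In VC(8-15h) embryo 2, 842 reads on the 187 nt entry gave 685 of the 722 RPKM. The 81 nt entry had reads in exactly 3 embryos, 226 in control embryo 3, 52 in TSA(0-8h) embryo 3 and 6 in TSA(0-8h)+VC(8-15h) embryo 3, and these are the 3 embryos of lane 5. Among 1244 entries with reads in exactly 3 embryos, 7.72% had them in these same 3, and 26.2% in 3 embryos of any 1 lane. The lane therefore moved with which rare entries were seen, and its part in the result was not tested.

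The pooled level of Uhrf1 was 48.1, 179 and 88.7 RPKM in the controls. It was 1.10 RPKM with VC(0-8h), and 57.5 and 67.4 RPKM with VC(8-15h). It was 1.64, 0.200 and 6.52 RPKM with TSA(0-8h), 2.24 and 69.7 RPKM with TSA(0-8h)+VC(0-8h), and 48.4, 5.50 and 28.7 RPKM with TSA(0-8h)+VC(8-15h). The TSA(0-8h) embryos stayed below every control on this scale. The TSA(0-8h)+VC(8-15h) and TSA(0-8h)+VC(0-8h) embryos no longer did, since the highest of each was above the lowest control.

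**Figure D1:**
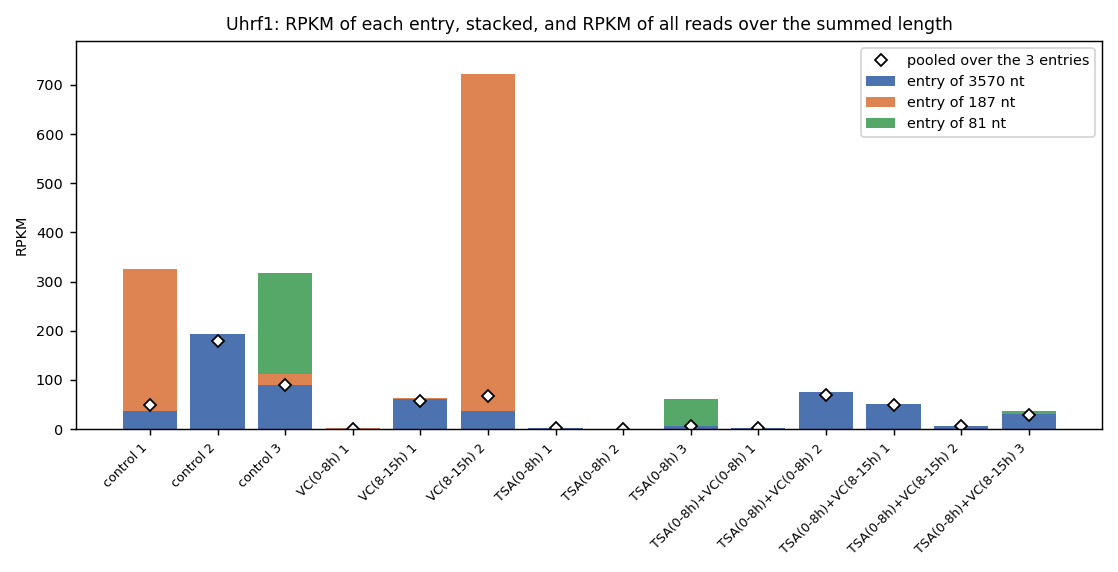
RPKM of Uhrf1 in each embryo. Bars stack the RPKM of the 3 entries, starting at 0, and diamonds give the pooled RPKM. In control 1 and VC(8-15h) 2 most of the bar is the 187 nt entry, and the 81 nt entry is seen only in the embryos numbered 3.

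Since RPKM are shares of a library, a shift of the whole distribution moves every gene. The median log2 fold change of all genes tested was −0.40 for TSA(0-8h) against control, 0.78 for TSA(0-8h)+VC(8-15h) against control and 1.21 for the latter treatment against TSA(0-8h). After median-ratio scaling these medians were −0.01, 0.10 and 0.06, and the log2 fold changes of Uhrf1 were −5.29, −4.24 and 1.12. Without scaling the medians depended on the filter of low values. With a filter blind to the groups they were −0.37, 0.55 and 0.89, and with no filter −0.03, 0.02 and 0.07. Genes with an unadjusted p under 0.05 (limma) were 136 higher and 232 lower, 461 higher and 124 lower, and 501 higher and 68 lower in the 3 comparisons. After scaling they were 176 and 185, 317 and 198, and 290 and 218. The oocyte markers summed to 96.7 to 990 RPKM in controls, 512 to 877 RPKM in TSA(0-8h) and 278 to 665 RPKM in TSA(0-8h)+VC(8-15h) embryos. These ranges overlapped, and their part in the result was not tested.

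The first comparison asked what TSA alone did. The log2 fold change of Uhrf1 in TSA(0-8h) against control embryos was −5.53 ± 1.74 (SE, n = 3 and 3), with limma's adjusted p of 0.139. The pooled value was −5.01 ± 2.06, with an adjusted p of 0.206 by limma. Uhrf1 was lower in the TSA embryo in each lane, with log2 differences of −6.89, −7.32 and −2.38 in lanes 3, 4 and 5 (pooled −4.22, −7.23 and −3.58). None of the 2471 genes tested passed the threshold of 0.05 after adjustment (limma), while 368 (14.9%) had an unadjusted p under 0.05 and limma-voom on the recovered reads called 1. At the unadjusted level 9.39% of genes tested were lower in TSA embryos, and Uhrf1 was the only one of the 3 members tested that was among them (unadjusted p = 0.00355, limma). Groups did not overlap, with all TSA embryos lower, for 11.6% of the genes tested on the summed and 11.5% on the pooled scale. An exact permutation test of Uhrf1 gave p = 0.1 (two-sided, n = 3 and 3), the smallest that 3 against 3 embryos allows. Uhrf1 passed the filter, 1 RPKM in all 3 embryos of either group, through the controls alone, and with a filter blind to the groups its adjusted p was 0.449 (limma).

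The second comparison asked what the sequential treatment did. In TSA(0-8h)+VC(8-15h) against control embryos the log2 fold change of Uhrf1 was −3.46 ± 1.07 (SE, n = 3 and 3), with an adjusted p of 0.111 by limma. Its pooled value was −2.13 ± 1.25, with an adjusted p of 0.392 by limma. In lanes 3, 4 and 5 the summed differences were −2.63, −4.68 and −3.08, and the pooled ones were 0.0092, −4.79 and −1.59. With a filter blind to the groups the adjusted p was 0.451 (limma). Of 3297 genes tested limma called none, 585 (17.7%) had an unadjusted p under 0.05, 3.76% of all being lower in treated embryos, and limma-voom called 319. No member was among those 319. The members with an unadjusted p under 0.05 were Uhrf1 (0.00485) and Dnmt3l (0.0330) by limma.

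The third comparison set the sequential treatment against TSA alone. The log2 fold change of Uhrf1 was 2.07 ± 1.89 (SE, n = 3 and 3), and 2.88 ± 1.53 pooled, with adjusted p of 0.619 and 0.351 by limma. Uhrf1 passed the filter here through the sequentially treated embryos alone. Groups did not overlap for 21.6% of the genes tested on the summed and 21.4% on the pooled scale. Those of Uhrf1 overlapped on the summed scale, where TSA(0-8h) embryo 3 was above all embryos of the sequential treatment, and also on the pooled one, by 1 embryo. Limma called none of 3115 genes, 569 (18.3%) had an unadjusted p under 0.05, and limma-voom called 283, no member among them. The 3 comparisons share embryos and are not independent.

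Over all 14 embryos, with TSA, VC(0-8h) and VC(8-15h) as terms of 1 additive fit, the TSA coefficient of Uhrf1 was −3.13 ± 1.19 on the log2 scale (SE). It had an unadjusted p of 0.0106 and an adjusted p of 0.985 (limma). The 8 embryos with TSA had a lowest, median and highest summed level of 0.215, 21.7 and 75.7 RPKM, and the 6 without TSA 2.37, 256 and 722 RPKM. An exact permutation test of these groups gave p = 0.038 for the summed and p = 0.0872 for the pooled level (two-sided, not adjusted over the 6 members). The difference of the log2 means was −4.19, −3.13 and −2.73 within lanes 3, 4 and 5 on the summed scale (pooled −2.84, −1.85 and −2.59). Limma called none of 7518 genes for TSA, with 356 (4.74%) at an unadjusted p under 0.05, 159 higher and 197 (2.62%) lower, Uhrf1 the only member among them, and limma-voom called 1. For VC(8-15h) the Uhrf1 coefficient was 0.86 ± 1.32, and the interaction of TSA(0-8h) and VC(8-15h), fitted on 11 embryos, was 2.41 ± 2.42 with an adjusted p of 0.946 by limma. For the interaction limma called none of 6551 genes, 294 (4.49%) had an unadjusted p under 0.05, 205 positive and 89 negative (80 and 230 after median-ratio scaling), and limma-voom called 2.

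**Figure D2:**
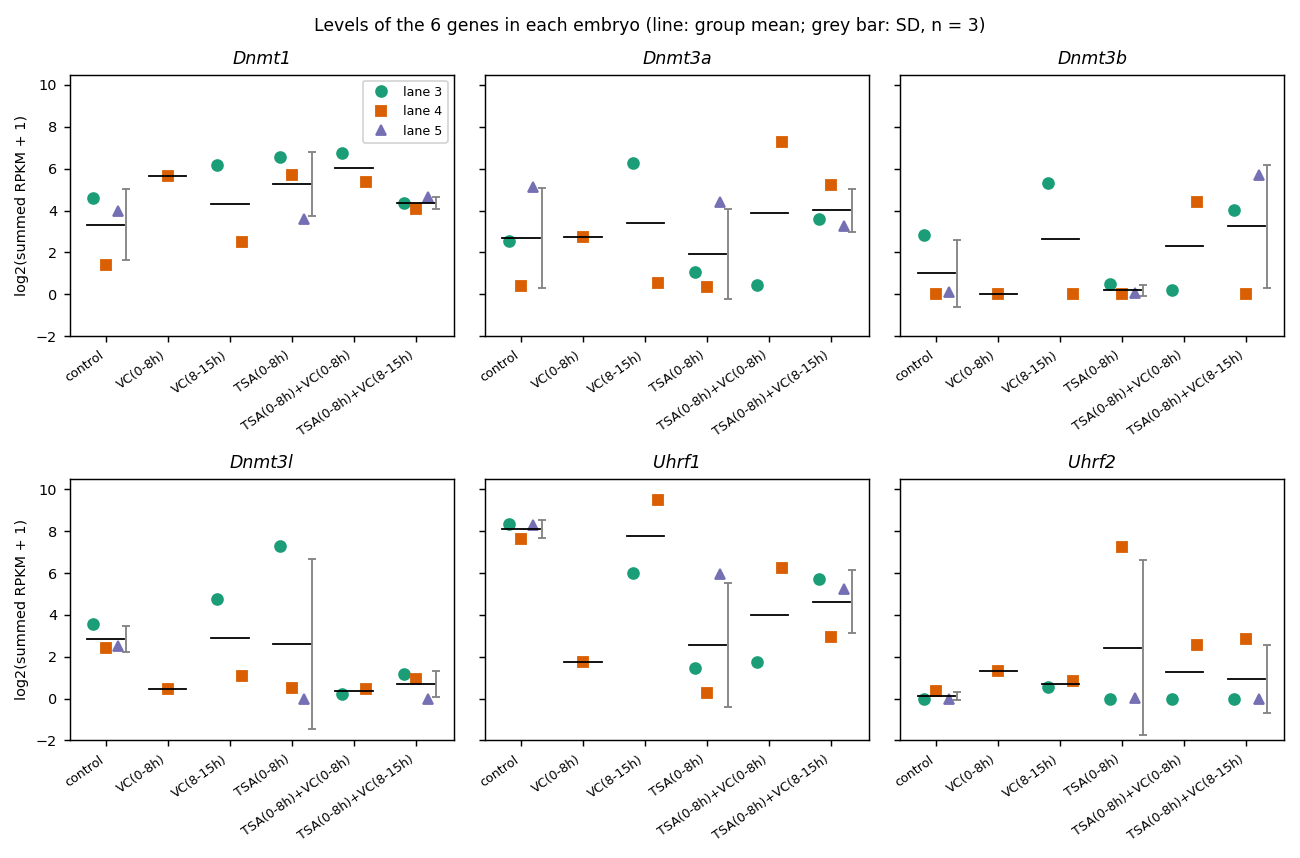
log2(summed RPKM + 1) of the 6 genes in each of the 14 embryos, by group on the horizontal axis. Points are embryos with the lane as shape and colour, black lines are group means and grey bars SD for groups of 3. Uhrf1 in the controls lies between 7.60 and 8.36, above all embryos that received TSA, while Dnmt3b and Uhrf2 lie at or near 0 in most embryos.

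Dnmt1, the maintenance methyltransferase, is at chr9:20711650-20757317 (mm9, minus strand) and was the only member with at least 1 RPKM in all 14 embryos. All its reads fell on 1 of its 4 entries, NM_001199431 with 5370 nt. The study's methods do not say how reads shared by entries were assigned, so this does not tell which form was present. Controls had 22.9, 1.65 and 15.0 RPKM, the VC(0-8h) embryo 48.9 RPKM and the VC(8-15h) embryos 70.9 and 4.65 RPKM. TSA(0-8h) embryos had 93.6, 51.3 and 10.9 RPKM, and TSA(0-8h)+VC(0-8h) embryos 106 and 39.7 RPKM. With TSA(0-8h)+VC(8-15h) the level was 19.4, 16.0 and 24.2 RPKM. These last 3 embryos were close to each other, with an SD of 0.29 on the log2 scale against 1.69 in controls and 1.54 with TSA(0-8h). The factors of median-ratio scaling over the 14 embryos, which describe whole libraries, were 1.74, 1.67 and 1.84 in these embryos. They were 1.47, 0.442 and 1.49 in controls and 0.753, 0.487 and 1.05 with TSA(0-8h). Control embryo 2, lowest in Dnmt1, had the lowest factor of the controls, whereas TSA(0-8h) embryo 3, lowest there, had the highest. The spread was not compared with a test, and the part of the library in it was not tested.

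Dnmt1 overlapped between all groups of 3. Its log2 fold change was 1.95 ± 2.02 (SE, n = 3 and 3) for TSA(0-8h) against control, 1.03 ± 1.69 for TSA(0-8h)+VC(8-15h) against control and −0.92 ± 1.55 for the latter treatment against TSA(0-8h), with adjusted p of 0.733, 0.798 and 0.806 by limma. The 95% intervals of the first and last ran from −2.18 to 6.09 and from −4.24 to 2.39. Over all 14 embryos the TSA coefficient was 0.96 ± 1.14.

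Dnmt1 and Uhrf1 tended to lie in opposite order across the embryos. The 4 embryos with at most 2.40 RPKM of Uhrf1 had 48.9 to 106 RPKM of Dnmt1, and the embryo with 722 RPKM of Uhrf1 had 4.65 RPKM of Dnmt1. Over the 14 embryos Pearson's r of the log2 levels was −0.68 (permutation p = 0.00654, adjusted 0.0981 over 15 pairs) and Spearman's rho −0.66 (permutation p = 0.0120, adjusted 0.180). Without the 2 embryos farthest from the median of Dnmt1, r was −0.59, and after centring on the lane it was −0.76. Within lane 4, the only lane with 6 embryos, r was −0.77. On the pooled scale r was −0.60 (permutation p = 0.0214, adjusted 0.321). There it was −0.42 without the same 2 embryos, −0.69 after centring on the lane and −0.76 within lane 4. All values of 1 embryo share its library, and the relation missed the threshold after adjustment. Of the other pairs Dnmt3a with Dnmt3b had r = 0.52 on the summed scale (permutation p = 0.0594, adjusted 0.336) and 0.36 on the pooled one. Dnmt3b with Uhrf2 had a pooled Spearman's rho of −0.59 (permutation p = 0.0288), with the same adjusted p as the pooled rho of Dnmt1 with Uhrf1, 0.216. The pooled r of Dnmt3b with Uhrf2 was −0.30 over the 14 embryos, but 0.034 after centring on the lane and 0.011 within lane 4. Dnmt1 with Dnmt3l had r = −0.91 within lane 4 but 0.23 over the 14 embryos.

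**Figure D3:**
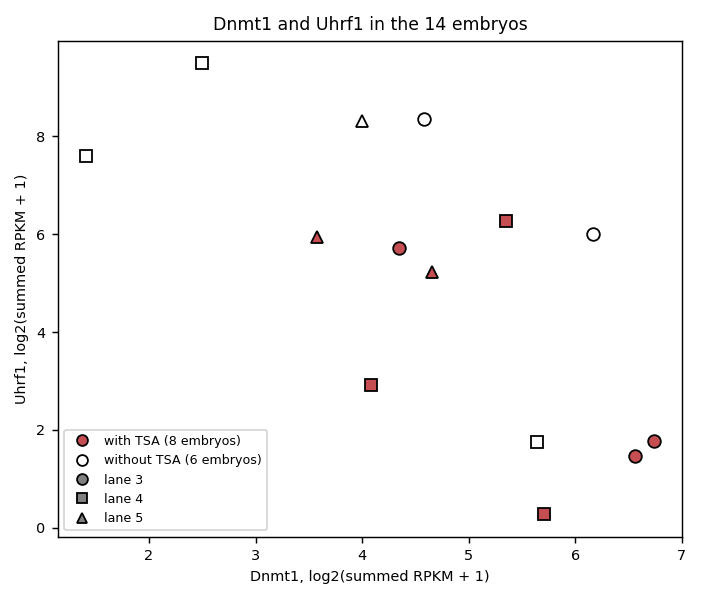
log2(summed RPKM + 1) of Dnmt1 on the horizontal and of Uhrf1 on the vertical axis, 1 point per embryo, filled where TSA was given and shaped by lane. The 4 embryos lowest in Uhrf1 lie to the right, at 5.64 or more for Dnmt1, and the embryo highest in Uhrf1, at 9.50, lies at 2.50 for Dnmt1.

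Dnmt3a, which methylates new sites, is at chr12:3806007-3914443 (mm9, plus strand). It had reads in all 14 embryos and at least 1 RPKM in 10. Controls had 4.82, 0.311 and 34.0 RPKM, the VC(0-8h) embryo 5.58 RPKM and the VC(8-15h) embryos 76.4 and 0.443 RPKM. TSA(0-8h) embryos had 1.08, 0.258 and 20.1 RPKM, and TSA(0-8h)+VC(0-8h) embryos 0.344 and 157 RPKM. The TSA(0-8h)+VC(8-15h) embryos had 10.98, 35.7 and 8.54 RPKM. In every other group with more than 1 embryo the lowest level was at most 0.443 RPKM and the highest at least 20.1 RPKM, whereas the sequentially treated embryos lay within 8.54 to 35.7 RPKM. In each of those other groups the embryo lowest in Dnmt3a also had the lowest factor of median-ratio scaling. The part of the library in this spread was not tested. The 157 RPKM rested on 1597 reads in an entry of 893 nt, and the pooled level of that embryo was 30.7 RPKM.

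The log2 fold change of Dnmt3a was 1.32 ± 1.74 (SE, n = 3 and 3) for TSA(0-8h)+VC(8-15h) against control and 2.08 ± 1.56 against TSA(0-8h), with adjusted p of 0.739 and 0.533 by limma. Dnmt3a passed the filter in these comparisons through the sequentially treated embryos alone. It was not tested in TSA(0-8h) against control, where neither group had 1 RPKM in all its embryos. The medians of all genes tested were 0.78 and 1.21 in these comparisons, so part of each difference was shared with the typical gene under that filter. With no filter the medians were 0.02 and 0.07. Over all 14 embryos the coefficients of Dnmt3a were 0.11 ± 1.41 (SE) for TSA and 1.45 ± 1.57 for VC(8-15h).

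Dnmt3b, the other enzyme for new sites, is at chr2:153475186-153513466 (mm9, plus strand). It was listed at 0 in 5 embryos and reached 1 RPKM in 5. Controls had 6.24, 0 and 0.0929 RPKM, the VC(0-8h) embryo had 0 and the VC(8-15h) embryos had 38.3 RPKM and 0. TSA(0-8h) embryos had 0.418, 0 and 0.0430 RPKM, and TSA(0-8h)+VC(0-8h) embryos 0.155 and 19.9 RPKM. With TSA(0-8h)+VC(8-15h) the levels were 15.5, 0 and 50.5 RPKM, the highest from 2457 reads. In the embryos at 0, 3 reads over the 4297 nt of its entries would have given 0.0893 to 0.164 RPKM, a limit for counting error alone.

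All 5 embryos without Dnmt3b reads were sequenced in lane 4, where 1 of 6 embryos had reads against 8 of 8 in the other lanes. Among the 658 genes listed at 0 in exactly 5 embryos, all 5 were in 1 lane for 7.14%. This pattern was noticed in the data, and its part in the levels was not tested. For VC(8-15h) over all 14 embryos the Dnmt3b coefficient was 2.38 ± 1.37 on the log2 scale (SE), the most positive among the members, with an unadjusted p of 0.0867 and an adjusted p of 0.785 (limma). With the lane as a factor it was 2.52 ± 1.36. Of the 5 embryos with VC(8-15h) 3 had 15.5 to 50.5 RPKM and 2 were at 0, while the highest of the 9 without it had 19.9 RPKM, all of it on the entry of 337 nt, and the next 6.24 RPKM. An exact permutation test gave p = 0.118 for the summed and p = 0.0649 for the pooled level (two-sided, n = 5 and 9). For this term limma called 1 of 7518 genes (0.0133%), Ccdc82, named here after its value was seen, with 502 (6.68%) at an unadjusted p under 0.05, 407 higher and 95 lower (254 and 173 after median-ratio scaling). Dnmt3b was tested in no comparison of 3 against 3 embryos, because no group had 1 RPKM in all its embryos.

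Dnmt3l, the cofactor without catalytic activity, is at chr10:77504692-77526367 (mm9, plus strand). Controls had 10.7, 4.41 and 4.78 RPKM, from 105, 55 and 118 reads. The VC(0-8h) embryo had 0.388 RPKM and the VC(8-15h) embryos 26.0 and 1.09 RPKM. TSA(0-8h) embryos had 156, 0.423 and 0 RPKM, and TSA(0-8h)+VC(0-8h) embryos 0.169 and 0.378 RPKM. The TSA(0-8h)+VC(8-15h) embryos had 1.27, 0.922 and 0 RPKM, at most 13 reads each, and lay below every control.

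The log2 fold change of Dnmt3l in TSA(0-8h)+VC(8-15h) against control embryos was −2.13 ± 0.92 (SE, n = 3 and 3), with an unadjusted p of 0.0330 and an adjusted p of 0.223 by limma. Among the genes tested in that comparison 5.70% had all treated embryos below all controls on the summed and 5.64% on the pooled scale. Of the 4 members tested Dnmt3l and Uhrf1 did so on the summed scale and Dnmt3l alone on the pooled one. The differences within lanes 3, 4 and 5 were −2.36, −1.49 and −2.53. Dnmt3l entered this comparison through the controls alone, and with a filter blind to the groups its adjusted p was 0.746 (limma). For TSA(0-8h) against control the log2 fold change was −0.24 ± 1.80, set by 1 embryo: without TSA(0-8h) embryo 1 it was −2.58, with an adjusted p of 0.382 (limma). There too Dnmt3l passed the filter through the controls alone. Over all 14 embryos the coefficients were −0.91 ± 1.27 (SE) for TSA and −1.04 ± 1.41 for VC(8-15h).

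Uhrf2, the homologue of Uhrf1, is at chr19:30105003-30168212 (mm9, plus strand). It was listed at 0 in 6 embryos and reached 1 RPKM in 4. Controls had 0, 0.288 and 0 RPKM, the VC(0-8h) embryo 1.46 RPKM and the VC(8-15h) embryos 0.459 and 0.774 RPKM. TSA(0-8h) embryos had 0, 152 and 0.0240 RPKM, TSA(0-8h)+VC(0-8h) embryos 0 and 4.98 RPKM, and TSA(0-8h)+VC(8-15h) embryos 0, 6.11 and 0 RPKM. The 152 RPKM came from 4197 reads in 1 embryo.

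All 6 embryos of lane 4 had reads of Uhrf2, against 2 of 8 in the other lanes. Among the 638 genes listed at 0 in exactly 6 embryos, 17.9% had reads in every embryo of lane 4. This pattern too was noticed in the data, and its part in the levels was not tested. Over all 14 embryos the log2 coefficients were 1.12 ± 1.01 (SE) for TSA and −0.55 ± 1.13 for VC(8-15h), with adjusted p of 0.993 and 0.963 by limma.

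**Figure D4:**
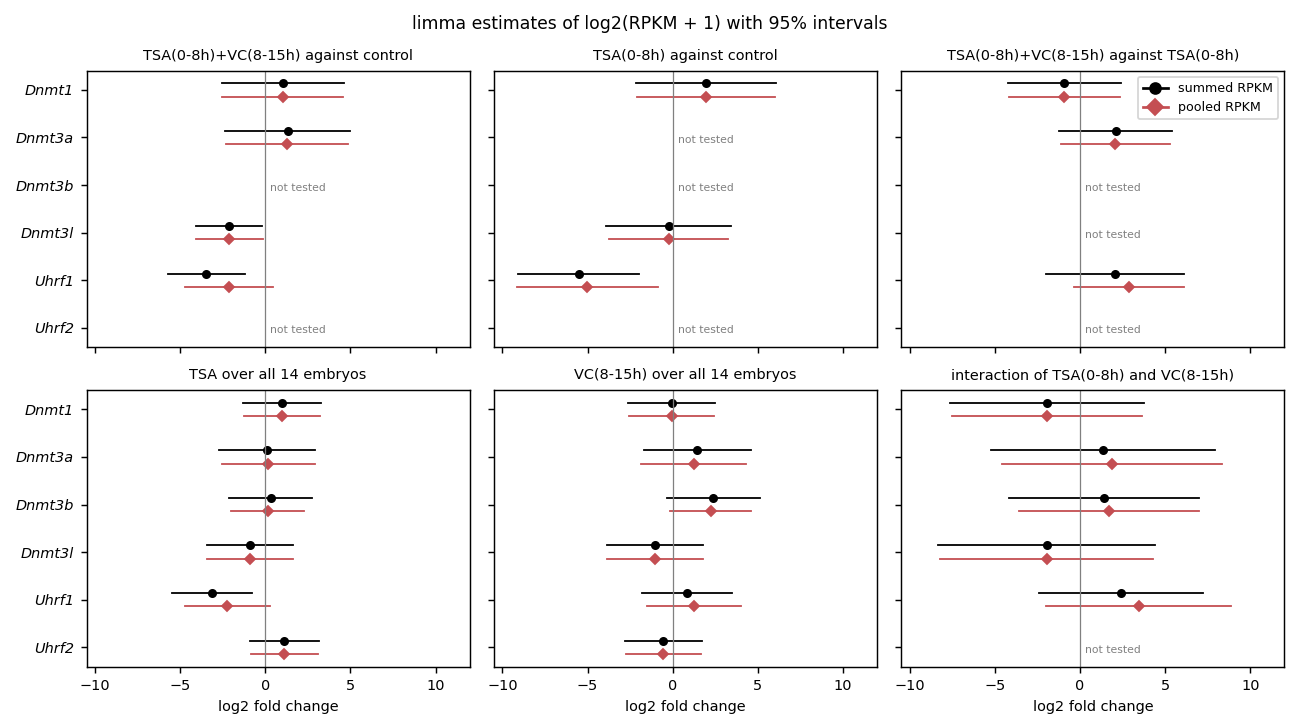
limma log2 fold changes or coefficients of the 6 genes with 95% intervals, 1 panel per comparison, from summed and pooled RPKM. Genes that did not pass the filter in a comparison are written as not tested. The interval of Uhrf1 lies below 0 on both scales only for TSA(0-8h) against control, where the summed estimate is −5.53, and no adjusted p was under 0.05.

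Ordered by their median over the 14 embryos the members stood at 56.2 RPKM for Uhrf1, 23.6 for Dnmt1, 7.06 for Dnmt3a, 1.01 for Dnmt3l, 0.156 for Uhrf2 and 0.124 for Dnmt3b. In the controls alone Dnmt3b and Uhrf2 changed places, and on the pooled scale Dnmt3a and Dnmt3l did too. In the 8 embryos with TSA the median of Dnmt1, 31.9 RPKM, was above that of Uhrf1, 21.7 RPKM. Neighbours were compared within embryos with exact sign-flip permutation tests, two-sided, adjusted over 5 pairs. Uhrf1 was above Dnmt1 in 8 of 14 embryos and Dnmt1 above Dnmt3a in 9 of 14 (exact p = 0.709 and 0.226 adjusted). The other neighbours gave adjusted exact p of 0.422 to 0.700. On the pooled scale Dnmt1 was above Dnmt3a in 11 of 14 embryos (mean log2 difference 1.97, SD 2.46, exact p = 0.0391 adjusted). No other neighbours passed the threshold on either scale.

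The genes whose log2 levels followed each member most closely were sought among 4372 genes with at least 1 RPKM in 7 or more embryos. For Dnmt1 these were Tmem41b, Nolc1 and Slc5a6 (r = 0.87, 0.83 and 0.83 over 14 embryos), and for Dnmt3a Tcof1, Map3k3 and Sall4 (0.95, 0.87 and 0.85). For Dnmt3b they were Tmem39a, Pcdh15 and Epcam (0.88, 0.86 and 0.86), and for Dnmt3l Atp13a1, Taf7 and Rap2a (0.79, 0.78 and 0.74). For Uhrf1 they were Brwd3, Ddx19a and Cry1 (0.78, 0.78 and 0.77) on the summed scale but Cnot8, Smc2 and Pkm (0.85, 0.78 and 0.78) on the pooled one. On the pooled scale those of Dnmt3a were Map3k3, Txlna and Tcof1 (0.93, 0.90 and 0.89), and those of Dnmt3b were again Pcdh15, Epcam and Tmem39a (0.87, 0.87 and 0.86). For Uhrf2 they were Uchl5, Mettl3 and Cfap20 (0.82, 0.80 and 0.79). The values of 1 embryo share their library and depth, and the list is a description.

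The partners of these enzymes were measured in the same embryos. Of 8 partners in maintenance, which include the sliding clamp Pcna and the remodeller Hells, all were tested over the 14 embryos and none passed the threshold in any of the 6 comparisons. The most abundant were Usp7, a deubiquitinase that binds Dnmt1 and Uhrf1, with a median of 106 RPKM (6.39 to 236), and Dppa3, a maternal factor that limits Uhrf1 in the oocyte, with 99.6 RPKM (0.208 to 776). For VC(8-15h) over all 14 embryos 6 of the coefficients were positive and 2 negative, with a median of 1.09 against 0.42 over all genes tested. Dppa3 had 2.73 ± 1.19 (SE) and an adjusted p of 0.727 by limma.

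Of 6 genes that direct new methylation or protect imprints, none passed the threshold in any comparison. Zfp57, a zinc finger protein that keeps imprinted regions methylated, had the highest median of all partners measured, 1120 RPKM, followed in its list by its cofactor Trim28 with 114 RPKM (2.25 to 220). Zfp57 had 1903, 600 and 2113 RPKM in controls, 1881 RPKM with VC(0-8h), and 865 and 79.8 RPKM with VC(8-15h). It had 191, 1569 and 1376 RPKM with TSA(0-8h), 4914 and 1413 RPKM with TSA(0-8h)+VC(0-8h), and 690, 110 and 66.8 RPKM with TSA(0-8h)+VC(8-15h). The sequentially treated embryos overlapped the controls by 1 embryo. The VC(8-15h) coefficient over all embryos was −2.24 ± 0.58 on the log2 scale (SE), with an unadjusted p of 0.000274 and an adjusted p of 0.314 (limma).

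Of 8 genes from the families of methyl-CpG binding proteins, 4 passed the filter over all 14 embryos, and none passed the threshold in a comparison. Their most abundant members were Mbd3, a subunit of the NuRD complex, with a median of 2.32 RPKM (0 to 176) and Zbtb33 with 0.0574 RPKM (0 to 9.90). Mbd3 had at most 0.367 RPKM in controls and 6.23, 111 and 36.5 RPKM with TSA(0-8h)+VC(8-15h), a log2 fold change of 4.79 ± 1.39 (SE, n = 3 and 3) with an adjusted p of 0.111 by limma. It passed the filter through the treated embryos alone.

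Of 7 genes that supply or turn over the methyl donor S-adenosylmethionine, 4 passed the filter over all embryos and none the threshold in a comparison. Mat2a, which makes the donor, had a median of 205 RPKM (3.12 to 516), and its regulatory subunit Mat2b 149 RPKM (8.55 to 1995). In TSA(0-8h)+VC(8-15h) against control embryos all 3 that were tested had positive log2 fold changes, 2.52 ± 1.28 for Mat2a, 1.99 ± 0.88 for Mat2b and 0.52 ± 1.68 for Mtr (SE, n = 3 and 3), with adjusted p of 0.319, 0.242 and 0.914 by limma. The median of all genes tested there was 0.78, above the value of Mtr. Gnmt was at 0 in every embryo and Ahcy at most at 0.241 RPKM.

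Of the 4 genes for oxidation and repair of methylcytosine, Tet3, the dioxygenase stored in the oocyte, had a median of 43.8 RPKM (2.79 to 163) and Tet1 5.50 RPKM (0.0524 to 28.7), and none of the list passed the threshold in a comparison. Tet3 was 103, 37.1 and 163 RPKM in controls and 18.4, 82.5 and 42.0 RPKM with TSA(0-8h)+VC(8-15h), a log2 fold change of −1.07 ± 1.16 (SE, n = 3 and 3). Trdmt1, an RNA methyltransferase with the fold of the DNA enzymes, reached at most 0.0385 RPKM.

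**Figure D5:**
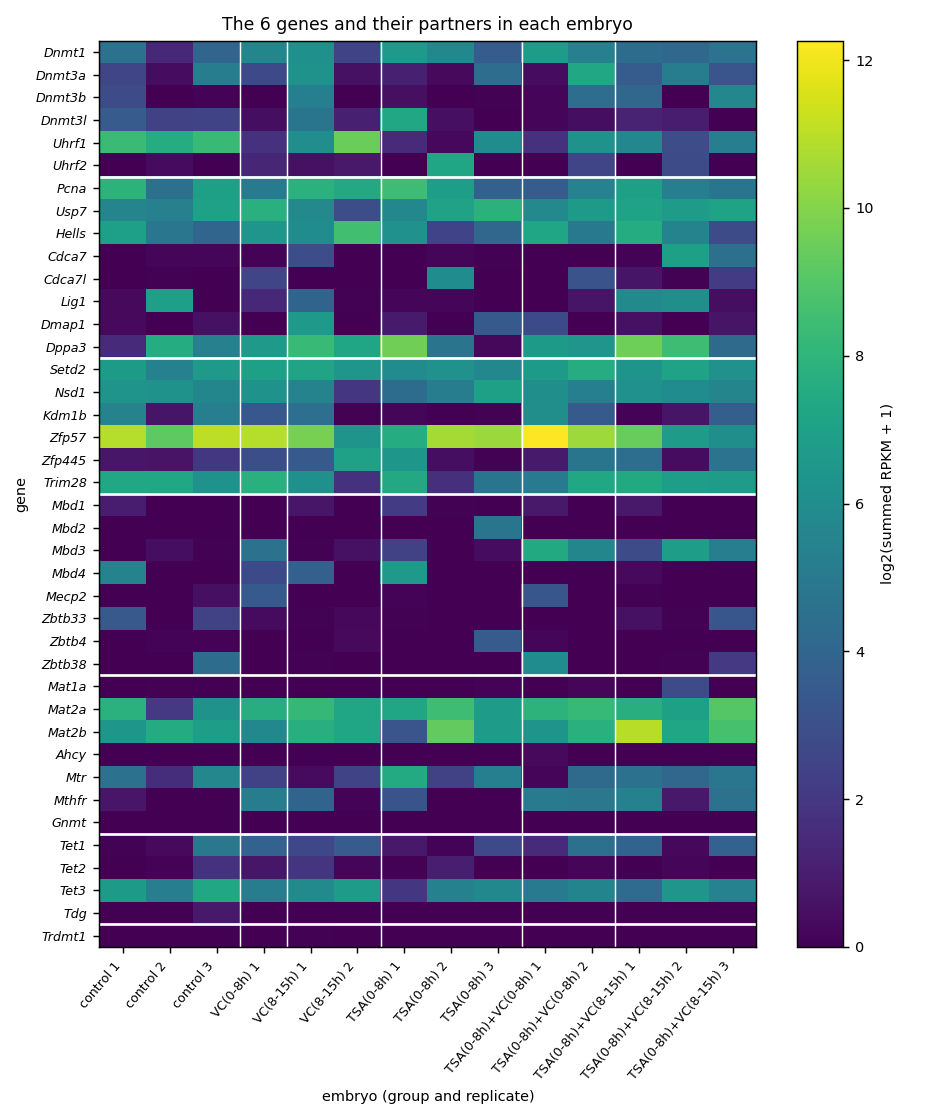
log2(summed RPKM + 1) as colour, with 1 row per gene and 1 column per embryo. White lines part the groups of embryos and, from the top, the 6 members, maintenance partners, genes for targeting and imprint protection, methyl-CpG binding, methyl donor supply, oxidation and repair, and Trdmt1. Zfp57 has the brightest row, with a median of 1120 RPKM, and most genes of the methyl-CpG binding families lie near 0.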

How the data were processed

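RNA of 14 single SCNT embryos was sequenced by the study as 50-base single-end reads after amplification, aligned with TopHat2 to mm9 per the submitters' processing notes and counted over UCSC exon annotation. The deposited values are RPKM computed by the authors for 25650 RefSeq entries per embryo, 25250 of them with a gene symbol. Each file held RPKM of 1 embryo, and no column was left out.

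RPKM values of the entries of one gene symbol were summed. The RPKM steps gave back whole reads and entry lengths for 14532 of 14532 entries with reads in at least 2 embryos (tolerance 1e-07). Between 3021540 and 13589389 reads were counted per embryo, so 3 reads on an entry of 1 kb were worth 0.221 to 0.993 RPKM, a limit for counting error only. Groups were taken from the sample labels. limma 3.58.1 (lmFit, eBayes with trend) in R 4.3.3 was fitted on log2(RPKM + 1), a scale that understates changes of low genes, and p-values were adjusted by Benjamini-Hochberg over all genes fitted, with a threshold of 0.05. Genes needed 1 RPKM in all 3 embryos of either group, or in any 3 embryos in the fits of 14 and 11. Since the study's methods used a count model and the files hold RPKM, limma took its place, and limma-voom on recovered reads was an alternative. The limma script was run on simulated data for the sequential treatment against control and for TSA over 14 embryos. The simulated spread was capped below that of the embryos, whose median within-group SD was 1.80 to 2.07 on the log2 scale. It checked the code and does not show what could be detected here. Exact and permutation tests used scipy 1.17.1.

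Alternatives were a pseudocount of 0.1, no filter, a filter blind to the groups, 1 fit of all embryos, a replicate block, the lane as a factor, the highest entry, median-ratio scaling, limma-voom, leaving out each embryo and, added after the values were seen, pooled RPKM. The members, gene lists and tests were chosen with earlier results of these data known. Named genes were the 6 members, the 3 genes with the highest r to each, and from each list of partners those past the threshold or else the 2 with the highest median. Gnmt, Ahcy and Ccdc82 were named after their values were seen, and Pcna and Hells only to describe their list. Promoter windows came from the RefSeq table of GRCm38.p6, were found by exact match in mm9, and entry lengths were compared with GENCODE vM1 exons.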

Additional observations from a re-analysis of the deposited data

Results flagged for a closer look

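Among the 8 embryos that received TSA, Dnmt3l stood far from the others in TSA(0-8h) replicate 1, at 156 RPKM (156.27) from 857 reads, while the other 7 embryos had at most 1.27 RPKM. Its gap to the next embryo was 0.838 of the whole range on the log2 scale, above Dixon's critical value of 0.526. In the same set Uhrf2 stood apart in TSA(0-8h) replicate 2, at 152 RPKM (151.815) from 4197 reads, with a gap of 0.610 of the range. These were 2 of 12 sets tested, the 6 genes in the embryos with and without TSA. Chance marks about 1 in 20 sets drawn from a single normal distribution. The present sets pool treatments and several hold many values at or near 0, so this rate cannot be taken over. The single groups held at most 3 embryos and were not tested in this way.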

How the results depend on the processing

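In the comparisons where the main fit tested a member, no member passed the threshold under any alternative. Members that entered a comparison only under another filter are not covered here. The adjusted p of Uhrf1 by limma ranged from 0.0801 to 0.996 for TSA(0-8h) against control and from 0.0824 to 0.724 for TSA(0-8h)+VC(8-15h) against control, and its log2 fold change kept its sign. Of 226 values of single members under an alternative other than leaving out an embryo, 220 kept their direction. The others were Dnmt3l for TSA(0-8h) against control, 0.10 after median-ratio scaling, Dnmt3a for TSA over 14 embryos, −0.16 with the lane as a factor and −0.16 with the replicate block, Dnmt1 for VC(8-15h), 0.14 by limma-voom, and Uhrf2 for VC(8-15h), 0.093 with a pseudocount of 0.1 and 0.57 by limma-voom.

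The counts of all genes called were unstable, and the cause was not tested. As reported, 0 genes were called except for VC(8-15h). With a pseudocount of 0.1 there were 107 for the sequential treatment and 99 for TSA(0-8h), both compared with control, 176 between these treatments, and 2 for TSA over 14 embryos. limma-voom called 319, 1, 283 and 1 in the same order, and 2 for the interaction. One fit of all embryos called 1 for the sequential treatment and 4 for TSA(0-8h), compared with control. For TSA(0-8h) against control the filter blind to the groups gave 5, the highest entry 3 and pooled RPKM 3. For the sequential treatment against TSA(0-8h) median-ratio scaling gave 3 and pooled RPKM 1. For VC(8-15h), median-ratio scaling and the lane gave 0 against 1 and pooled RPKM 3, and pooled RPKM gave 2 for the interaction. Leaving out each embryo gave 0 to 4 for the sequential treatment and 0 to 2 for TSA(0-8h), compared with control, 0 to 119 between them, and 0 to 2, 0 to 5 and 0 to 1 for TSA, VC(8-15h) and the interaction.

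Pooled RPKM also gave 1 pair of neighbours that differed in level where the sum gave 0, and a difference in Uhrf1 with and without TSA of −2.24 with an exact permutation p of 0.0872. Replicates with the same number share only that number in the labels. In the groups of 3 they also share the lane, which was read from the library identifiers. Whether they share a nuclear transfer experiment is not given. Deviations from the group means were correlated across the genes tested, between embryos of the 2 groups compared. These correlations ran from −0.0472 to 0.0544 for same-numbered embryos and from −0.0763 to 0.0504 for embryos with different numbers. The replicate block gave 5 calls for TSA(0-8h) and 7 for the sequential treatment, both compared with control, 168 between these treatments, 1 for TSA over 14 embryos, 0 for VC(8-15h) and 0 for the interaction.

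Leaving out 1 embryo turned the sign of some estimates, each of them smaller than its SE. The largest was the interaction of Dnmt3l, −1.96 ± 3.20 with all embryos. Of the values of single members with 1 embryo left out, 24 changed direction and 259 kept it. Dnmt3l for TSA(0-8h) against control ran from −2.58 to 1.07. Over 14 embryos the TSA coefficient ran from −0.71 to 0.77 for Dnmt3a and from −0.42 to 0.94 for Dnmt3b, and that of VC(8-15h) from −0.80 to 0.37 for Dnmt1, from −1.86 to 0.16 for Dnmt3l and from −0.99 to 0.75 for Uhrf2. The interaction ran from −1.50 to 4.24 for Dnmt3a, from −1.25 to 4.05 for Dnmt3b and from −3.81 to 0.38 for Dnmt3l. Uhrf1 stayed between −7.22 and −4.39 for TSA(0-8h) against control and between −4.01 and −2.61 for the sequential treatment. With at most 3 embryos a group, 95% intervals of several log2 units limit what could be detected.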
